A study of Homo sapiens with 4 samples.

Results

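The estrogen synthesis and inactivation genes described here are 9 enzymes that make, convert, conjugate or hydroxylate estrogens: HSD17B1, HSD17B2, HSD17B4, HSD17B7, HSD17B12, STS, SULT1E1, CYP1A1 and CYP1B1. They were taken by symbol from a table of 26364 genes, by a rule that uses their function and no measured value, though it was set with earlier results of these data known. RNA was sequenced from Ishikawa cells, a human line derived from an endometrioid adenocarcinoma. All cells carried the Y537S substitution in the ligand-binding domain of estrogen receptor alpha (ESR1), which is known to favour receptor activity without hormone. After at least 5 days in phenol-red-free medium with stripped serum, cells received the vehicle (0.1% DMSO) or 10 nM estradiol (E2) for 8 h. The DMSO group and the E2 group had 2 libraries each, from 2 mutant clones, and no cells without the mutation are compared here. The columns carry a tag, A4 or B212, which stands once in each group and appears in none of the sample labels. Clone numbers could not be matched to the tags, so libraries are named by tag and treatment.

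Total counts were 71575816 to 85222856 per library. The E2 comparison was fitted with edgeR's quasi-likelihood test without a block, and again with the tag as a block, because each tag stands on a DMSO and an E2 column and the labels give each clone both treatments. Without the block the test called 0 of 15599 genes (0%) at an adjusted p under 0.05 and 150 at an unadjusted p under 0.05. With it the test called 1492 genes (9.56%), 956 higher (6.13%) and 536 lower (3.44%). Between the tags it called 7950 genes (51.0%), 3927 higher in B212 (25.2%) and 4023 lower (25.8%). Scaling by library size alone gave 911 higher and 775 lower genes for E2, and 4761 higher and 3176 lower for the tags. All 8 epithelial markers examined, among them EPCAM, KRT8 and PAX8, were detected, with a summed level of 2301 to 3063 CPM (read counts scaled to library size) in a library. Stromal markers summed to 35.8 to 132 CPM, nearly all from COL1A1, with DCN at 1 count in all. Endothelial markers summed to 2.30 to 5.11 CPM, with PECAM1 at 0, and immune markers to 1.67 to 2.51 CPM, with CD3E at 0. The cells were clones of a single line, so these sums are RNA levels and do not count stromal, endothelial or immune cells. In such bulk RNA, fewer cells that express a gene and less RNA per cell cannot be told apart.

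Estrogen activity inside a cell depends on the balance of these enzymes. Reductive hydroxysteroid dehydrogenases such as HSD17B1 turn the weak estrogen estrone into estradiol, and steroid sulfatase (STS) frees estrone from its circulating sulfate. HSD17B2 oxidises estradiol back to estrone, and SULT1E1, the estrogen sulfotransferase, makes conjugates that do not bind the receptor. In normal endometrium HSD17B2 and SULT1E1 are known as progesterone-responsive genes of the secretory phase. CYP1A1 and CYP1B1 hydroxylate estrogens to catechol estrogens and are textbook targets of the aryl hydrocarbon receptor (AHR). HSD17B4, HSD17B7 and HSD17B12 have main roles outside estrogen metabolism, in peroxisomal fatty acid oxidation, cholesterol synthesis and fatty acid elongation.

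Of the 9 genes, 8 had counts in every library and passed the filter on low counts. HSD17B2 was listed at 0 in all 4 libraries. A count of 0 allows up to 3 counts, which is 0.0351 to 0.0410 CPM depending on the library, and covers counting error only. CYP19A1 (aromatase, which makes estrogens from androgens) was likewise at 0 in every library. RNA for the oxidising enzyme HSD17B2 and for aromatase was not detectable at this depth in cells of either tag, with or without E2.

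The measured enzymes spanned a wide range of levels. Per kilobase of the longest coding transcript in GENCODE 29, HSD17B12 had 65.2 CPM per kilobase (61.9 to 67.1 over the 4 libraries) and HSD17B4 had 59.3 (56.1 to 61.7). HSD17B7 had 9.20 (7.70 to 12.6) and CYP1B1 6.94 (4.01 to 10.2) CPM per kilobase. STS had 2.21 (2.09 to 2.29), SULT1E1 1.71 (1.47 to 2.10), CYP1A1 1.03 (0.577 to 1.87) and HSD17B1 0.844 (0.729 to 0.894). HSD17B12 stood above HSD17B4 in range, and CYP1B1 above STS. HSD17B7 overlapped with CYP1B1, and neighbours from STS down to HSD17B1 overlapped each with the next. With the shortest coding transcript that carries an APPRIS tag (GENCODE's mark of the main isoforms), an alternative chosen after seeing the data, HSD17B1 moved to 3.32 CPM per kilobase and stood above STS. CYP1B1 then had 16.8, and HSD17B4 (65.1) overlapped HSD17B12.

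**Figure D1:**
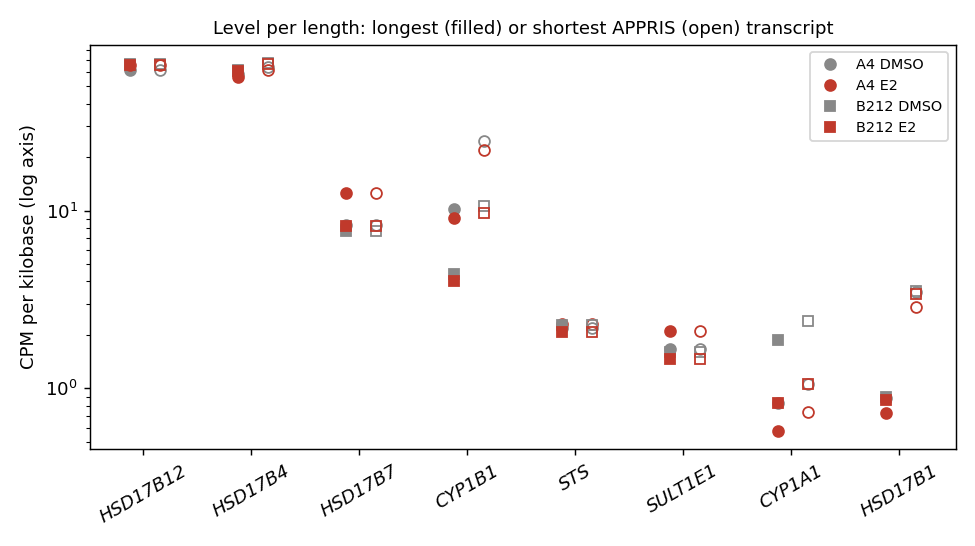
Level of each of the 8 detected enzymes, in CPM per kilobase on a log axis, by library (circles, A4; squares, B212; grey, DMSO; red, E2), with the longest coding transcript (filled) or the shortest APPRIS transcript (open) as the length. HSD17B12 and HSD17B4 lie highest, and HSD17B1 and CYP1B1 shift most with the choice of transcript.

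Among the estrogen-activating enzymes, none was called for E2, and HSD17B7 alone was called between the tags. HSD17B1, the classical estrone reductase, had 4.42 CPM in A4 DMSO, 3.63 in A4 E2, 4.45 in B212 DMSO and 4.31 in B212 E2. The E2 library was the lower in each tag, and the groups did not overlap. Its E2 log2 fold change was -0.16 ± 0.24 (SE) without the block (edgeR adjusted p = 0.9999) and -0.16 ± 0.13 with it (edgeR adjusted p = 0.479). STS had 14.3 and 15.0 CPM in A4 (DMSO, E2) and 14.8 and 13.6 CPM in B212. Its 4 values stayed within a narrow range and the groups overlapped. With the tag as a block STS had -0.030 ± 0.095 (log2, SE; edgeR adjusted p = 0.879).

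HSD17B12, which reduces the keto intermediate of long-chain fatty acid elongation and can reduce estrone, had 159 and 170 CPM in A4 (DMSO, E2) and 173 and 169 CPM in B212. The groups overlapped. Its E2 log2 fold change with the tag as a block was 0.033 ± 0.070 (SE), with an edgeR adjusted p of 0.812. It had 11663 to 14723 counts per library.

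HSD17B7, a reductase of cholesterol synthesis that also reduces estrone, had 719 counts in A4 DMSO, 1231 in A4 E2, 782 in B212 DMSO and 719 in B212 E2. In CPM these were 9.82, 15.0, 9.16 and 9.81. The A4 E2 library stood apart, and the other 3 were close together. The log2 fold change for E2 was 0.39 ± 0.27 (SE) without the block (edgeR adjusted p = 0.9999) and 0.36 ± 0.12 with it (edgeR adjusted p = 0.0546), just outside the threshold. Without the A4 E2 library the value without a block was 0.048. With the tag as a block, library size as the only scaling gave an edgeR adjusted p of 0.0438, and no filter on low counts gave 0.00964. DESeq2 size factors gave 0.111 in edgeR, and removal of a length and GC trend lowered the value to 0.19 (edgeR adjusted p = 0.303). Within the tags the log2 ratio of E2 to DMSO was 0.61 in A4 (95% counting interval 0.48 to 0.75) and 0.098 in B212 (-0.050 to 0.25). Between the tags HSD17B7 was lower in B212, at 9.49 ± 0.457 CPM against 12.4 ± 3.67 CPM in A4 (SD, n = 2). Each SD is over the DMSO and the E2 library of a tag, so it holds the treatment difference. B212 against A4 gave -0.36 ± 0.12 (log2, SE; edgeR adjusted p = 0.0133). It was -0.10 between the DMSO libraries and -0.61 between the E2 libraries, and it was not called by DESeq2 (adjusted p = 0.0773) or by edgeR with no treatment term (adjusted p = 0.178). HSD17B7P2, a pseudogene copy, had 98 and 138 counts in A4 (DMSO, E2) and 148 and 146 counts in B212. How reads were divided between gene and copy is not given in the sources used here, so HSD17B7 is uncertain to that extent.

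**Figure D2:**
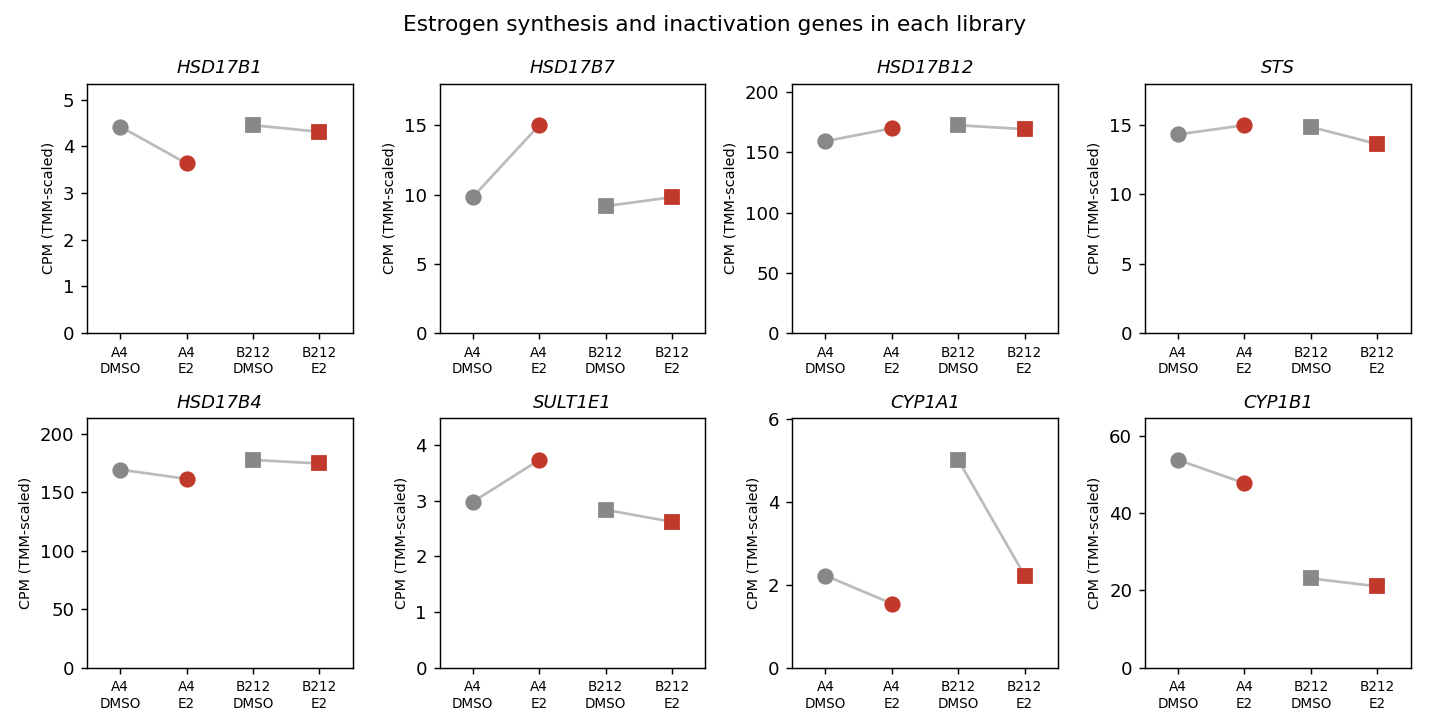
CPM of each of the 8 detected enzymes in the 4 libraries (circles, A4; squares, B212; grey, DMSO; red, E2; grey lines join the libraries of a tag; each vertical axis starts at 0). HSD17B7 is highest in A4 E2 (15.0 CPM), CYP1A1 in B212 DMSO (5.01 CPM), and CYP1B1 separates the tags.

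The inactivating enzymes were not called in either comparison. HSD17B4, the peroxisomal bifunctional protein that can also oxidise estradiol, had 170 and 162 CPM in A4 (DMSO, E2) and 178 and 175 CPM in B212. Its E2 log2 fold change with the tag as a block was -0.047 ± 0.069 (SE), with an edgeR adjusted p of 0.718. SULT1E1 had 218 and 306 counts in A4 and 242 and 192 counts in B212, or 2.98 and 3.73 CPM against 2.84 and 2.62 CPM. The A4 E2 library was the highest and the B212 E2 library the lowest, so the groups overlapped. Its E2 log2 fold change was 0.11 ± 0.16 (SE) with the tag as a block (edgeR adjusted p = 0.699), and without a block it was -0.15 when the A4 E2 library was left out. B212 against A4 gave -0.29 ± 0.16 for SULT1E1 (log2, SE; edgeR adjusted p = 0.125). After removal of a length and GC trend it was -0.42 (edgeR adjusted p = 0.0199).

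CYP1A1 was the only one of the 8 tested enzymes called for E2, and this call needed the block by tag. This is 1 of 8, beside 9.56% of all tested genes in either direction. Its counts were 163 in A4 DMSO, 127 in A4 E2, 428 in B212 DMSO and 163 in B212 E2. In CPM these were 2.23, 1.55, 5.01 and 2.22. The B212 DMSO library was more than double any other, and the E2 library was the lower in each tag. A4 DMSO and B212 E2 were nearly equal, at the border between the groups. Without the block its E2 value was -0.94 ± 0.50 (log2, SE; edgeR adjusted p = 0.9999). With the tag as a block CYP1A1 fell by 0.88 ± 0.17 (SE) on the log2 scale, with an edgeR adjusted p of 0.00458. Within the tags the log2 ratio was -0.52 in A4 (95% counting interval -0.87 to -0.18) and -1.17 in B212 (-1.44 to -0.91). Without the B212 DMSO library the value without a block was -0.24. DESeq2 with the block gave CYP1A1 no adjusted p (unadjusted p = 0.00225, model fitted across all genes), while limma-voom with the block called it (adjusted p = 0.0137).

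The CYP1A1 promoter is shown because it belongs to the enzyme called for E2, and the HSD17B7 promoter for comparison, as that of the enzyme with the next largest E2 value. Both are from RefSeq, GRCh38.p14, and run 5' to 3' from 250 bases before to 50 after the gene start. Capitals mark matches to GCGTG, the core of the xenobiotic response element bound by AHR, on either strand. CYP1A1 lies on the minus strand of chr15:74725479-74725778 and HSD17B7 on the plus strand of chr1:162790452-162790751.
CYP1A1: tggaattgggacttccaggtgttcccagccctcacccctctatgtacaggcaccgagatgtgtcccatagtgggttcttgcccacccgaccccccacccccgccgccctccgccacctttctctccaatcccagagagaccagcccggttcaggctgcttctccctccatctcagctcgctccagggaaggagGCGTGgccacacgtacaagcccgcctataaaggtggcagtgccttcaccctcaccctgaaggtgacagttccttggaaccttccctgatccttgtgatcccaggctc
HSD17B7: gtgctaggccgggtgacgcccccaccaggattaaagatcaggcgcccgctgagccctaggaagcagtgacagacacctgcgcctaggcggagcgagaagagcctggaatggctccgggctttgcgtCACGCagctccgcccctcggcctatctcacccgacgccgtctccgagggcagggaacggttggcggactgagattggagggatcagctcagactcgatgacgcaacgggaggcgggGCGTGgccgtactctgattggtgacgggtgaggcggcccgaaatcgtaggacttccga
CYP1A1 held 1 match, which began 57 bases before its start, and a TATA box (TATAAA) that began 32 bases before it. HSD17B7 held 2 matches of the core, which began 124 and 8 bases before its start, and no TATAAA. STS held 1 match, and SULT1E1 and HSD17B4 held 0. Of 27305 promoters of the same length, 36.3% held the core and 12.0% held TATAAA on either strand. The nuclear receptor hexamer AGGTCA, found in 13.9% of promoters, and the full palindromic estrogen response element, found in 0.066%, were in none of the 5 member promoters in the table. Matches are letters in this window only and say nothing about binding. HSD17B1, HSD17B2, HSD17B12 and CYP1B1 had no promoter entry.

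CYP1B1 differed most between the tags. It had 53.8 and 47.7 CPM in A4 (DMSO, E2) against 23.1 and 21.1 CPM in B212. Both A4 libraries lay above both B212 libraries. The level was 50.8 ± 4.26 CPM in A4 and 22.1 ± 1.44 CPM in B212 (SD, n = 2), which is 2.30-fold higher in A4. These SDs are over the DMSO and the E2 library of a tag and are not replicate spread. B212 against A4 gave -1.20 ± 0.079 (log2, SE; edgeR adjusted p = 1.40e-10), and the value stayed between -1.22 and -1.18 when any library was left out. For E2 its log2 fold change with the tag as a block was -0.15 ± 0.079 (SE), with an edgeR adjusted p of 0.231. The E2 library was the lower in each tag (-0.17 in A4 and -0.13 in B212). The antisense gene CYP1B1-AS1 had 1 to 5 counts per library.

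CYP1A1 differed between the tags in the other direction, at 3.62 ± 1.97 CPM in B212 and 1.89 ± 0.479 CPM in A4 (SD, n = 2). Here too each SD is over a DMSO and an E2 library and holds the treatment difference. B212 against A4 gave 0.88 ± 0.17 (log2, SE; edgeR adjusted p = 2.69e-04). It was 1.17 between the DMSO libraries and 0.52 between the E2 libraries, and with no treatment term it was not called (edgeR adjusted p = 0.103). The A4 DMSO and B212 E2 libraries both had 163 counts. In CPM these were 2.226 and 2.224, so the tags overlapped only barely. In all, 3 of the 8 enzymes were called between the tags, 1 higher and 2 lower in B212, beside 51.0% of all tested genes. The other 5 (HSD17B1, HSD17B12, STS, HSD17B4 and SULT1E1) had log2 fold changes of -0.29 to 0.13. The largest edgeR adjusted p among those was 0.740, for STS.

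**Figure D3:**
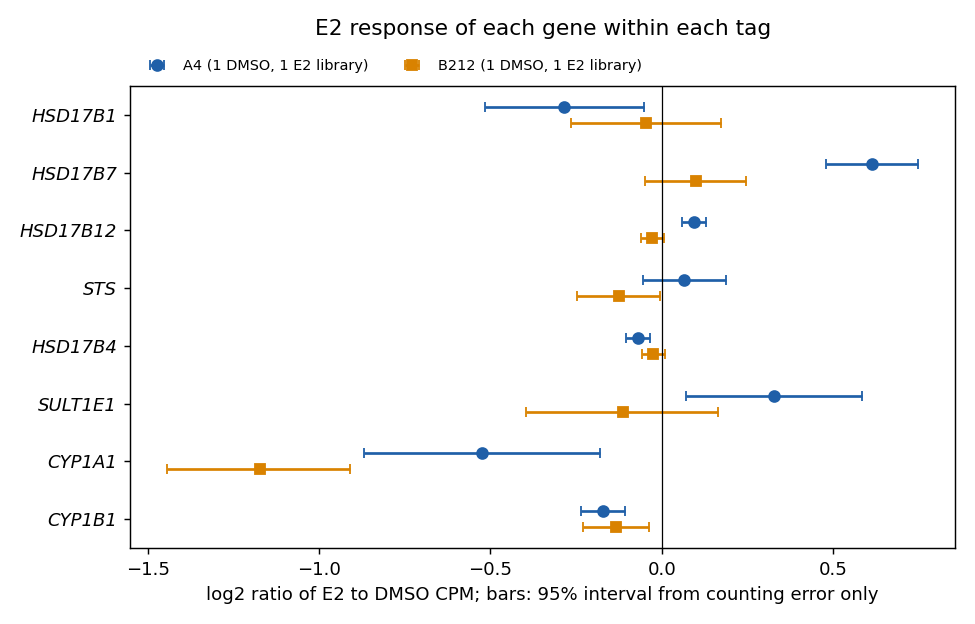
Log2 ratio of E2 to DMSO CPM within A4 (blue circles) and B212 (orange squares) for the 8 detected enzymes, each from 1 library per treatment, with 95% intervals that cover counting error only. CYP1A1 lies below 0 in both tags, HSD17B7 lies at 0.61 in A4 and 0.098 in B212, and SULT1E1, STS and HSD17B12 lie on opposite sides of 0.

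The genes whose profile over the 4 libraries lay closest to that of CYP1B1, among 13398 tested genes with a mean of at least 50 counts, were SQLE, SEC24D and MARCKS. Their Euclidean distances in centred log2 CPM were 0.039, 0.054 and 0.055. With only 4 libraries, and 51.0% of tested genes called between the tags, some genes were bound to lie close. The distances therefore do not show a link between these genes and CYP1B1.

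Related genes of estrogen metabolism were examined as lists. With the tag as a block, 4 of the 76 tested genes on the 9 lists were called for E2, beside 9.56% of all genes. CYB5A, the cytochrome b5 that assists steroid-forming P450 enzymes, rose by 0.33 ± 0.073 (log2, SE), with an edgeR adjusted p of 0.00826 and 68.4 to 91.9 CPM in A4 and 77.5 to 91.6 CPM in B212. It was called under all 7 alternatives with the block. TIPARP, a feedback inhibitor and target of AHR, rose by 0.26 ± 0.075 (edgeR adjusted p = 0.0326), from 55.8 to 68.6 CPM in A4 and from 40.3 to 47.1 CPM in B212. TIPARP and CYP1A1, both known AHR targets, had opposite directions. MSMO1, a cholesterol synthesis enzyme that acts close to HSD17B7, rose by 0.30 ± 0.074 (edgeR adjusted p = 0.0166). Scaling by DESeq2 size factors lost the calls of TIPARP and MSMO1, DESeq2 itself lost that of TIPARP, and removal of the length and GC trend lost that of MSMO1. Over the alternatives with the block the largest adjusted p was 0.103 for TIPARP and 0.215 for MSMO1, and the lowest log2 fold change of MSMO1 was 0.13. Without the block, 0 of these genes were called by edgeR, and CYB5A alone had an unadjusted p under 0.05. AHR itself had 36.1 to 38.7 CPM in every library.

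Each list held genes called between the tags, beside 51.0% of all tested genes. In the list of other hydroxysteroid dehydrogenases and AKR1C reductases, 5 of 9 tested genes were higher and 1 was lower in B212. AKR1C3, a reductase that forms testosterone and estradiol, was higher by 2.39 ± 0.23 (log2, SE), AKR1C1 by 2.06 ± 0.17 and AKR1C2 by 0.82 ± 0.14, and HSD17B10, a mitochondrial dehydrogenase, was lower with -0.47 ± 0.071. AKR1C genes are near-identical copies, so their separate values are uncertain. AKR1C3 had 30 and 32 counts in A4 and 192 and 144 counts in B212. HSD17B8 and AKR1C4 were listed at 0.

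In the list of conjugation and deconjugation genes all 9 tested genes were higher in B212, with a median log2 fold change of 0.55 beside 0.0042 over all genes. SULT2B1, a hydroxysteroid sulfotransferase, was higher by 2.13 ± 0.12 (SE), SULT1A1 by 1.07 ± 0.10, SULT1A2 by 1.18 ± 0.14 and SUMF2, a paralogue of the sulfatase activator SUMF1, by 0.55 ± 0.069. The remaining 5 were SULT1C2, PAPSS1, PAPSS2, SUMF1 and GUSB. SULT1E1, the estrogen-specific sulfotransferase, was not called and its value was negative. Another 13 genes of the list were under the filter, 8 of them at 0. Those at 0 included SULT1A3 and SULT1A4, which are near-identical copies, and 4 UGT1A genes, which share exons. How such shared reads were assigned is not given in the sources used here. SULT1A1 and SULT1A2 are of the same family as SULT1A3 and SULT1A4, so their separate values are uncertain to that extent.

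In the list of hydroxylation and catechol genes 3 of 5 tested genes were called, all lower in B212. NQO1, a quinone reductase, was lower with -0.42 ± 0.073 (log2, SE), and GSTP1, a glutathione transferase, with -0.64 ± 0.069. CYP1B1 was also lower in B212, and CYP1A1 was higher. In the AHR list 2 of 6 genes were higher (ARNT2 by 0.67 ± 0.093, ARNT by 0.17 ± 0.070) and 2 were lower (TIPARP with -0.51 ± 0.075 among them). ARNT lost its call under 4 of 8 alternatives. AHR was not called, with a log2 fold change of 0.016 ± 0.078 and an edgeR adjusted p of 0.883.

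In the list of steps upstream of estrogens 3 of 9 tested genes were higher and 1 was lower in B212. CYP17A1, the androgen-forming P450, had 6 and 4 counts in A4 and 118 and 66 counts in B212. Its log2 fold change was 4.10 ± 0.39 (SE). Both A4 counts were under the minimum count of the filter, so CYP17A1 was tested only because of its B212 counts. The stricter filter, which asked for a minimum count in every library, left it out. CYP17A1 was called under the 7 alternatives that kept it. FDXR (0.59 ± 0.11) and FDX1 (0.27 ± 0.081), electron donors of mitochondrial P450 enzymes, were higher, and POR, the donor of microsomal ones, was lower with -0.19 ± 0.069. FDX1 and POR were not called by DESeq2 or without a treatment term, nor was POR with library size alone. CYP11A1, HSD3B1 and HSD3B2, which carry out the earlier steps, had at most 1 count in a library. Of the conjugate transporters 2 of 6 tested genes were lower, ABCG2 with -1.21 ± 0.19 and ABCC4 with -0.37 ± 0.069.

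In the partner pathways of the enzymes with lipid roles, the share called between the tags stands beside 51.0% of all tested genes. It was 8 of 10 for cholesterol synthesis, 8 of 12 for fatty acid elongation and 4 of 10 for peroxisomal genes, the last under that share. Of 10 cholesterol synthesis genes around HSD17B7, 7 were lower and 1 was higher in B212, with a median of -0.23. SQLE was lower with -1.23 ± 0.078 (log2, SE), DHCR7 with -0.70 ± 0.069, LSS with -0.45 ± 0.075 and EBP with -0.26 ± 0.070, the last not called without a treatment term. HSD17B7 had the same direction. Of 12 fatty acid elongation genes around HSD17B12, 3 were higher (HACD4 by 0.99 ± 0.12 among them) and 5 lower (ELOVL2 with -1.02 ± 0.14, ELOVL6 with -0.88 ± 0.075, ELOVL1 with -0.58 ± 0.075 among them). HSD17B12 itself had 0.055 ± 0.070 and was not called (edgeR adjusted p = 0.540). Of 10 peroxisomal genes around HSD17B4, 1 was higher (EHHADH by 0.38 ± 0.091) and 3 were lower (ACOX2 with -2.12 ± 0.21 and ACOX3 with -0.41 ± 0.10 among them). HSD17B4 had 0.091 ± 0.069 and was not called (edgeR adjusted p = 0.284). In the same comparison 5 of 8 epithelial markers and the endothelial markers VWF and KDR were higher in B212, and the 3 tested stromal markers were lower. For E2 with the block, 3 of 8 epithelial markers (KRT18, PAX8 and ESR1) were called lower, beside 3.44% of all tested genes. Of the tested markers of other types, 1 of 3 stromal (COL1A1), 1 of 2 endothelial (VWF) and 0 of 2 immune ones were called lower. No marker was called higher. The part of these marker differences in the results above was not tested.

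**Figure D4:**
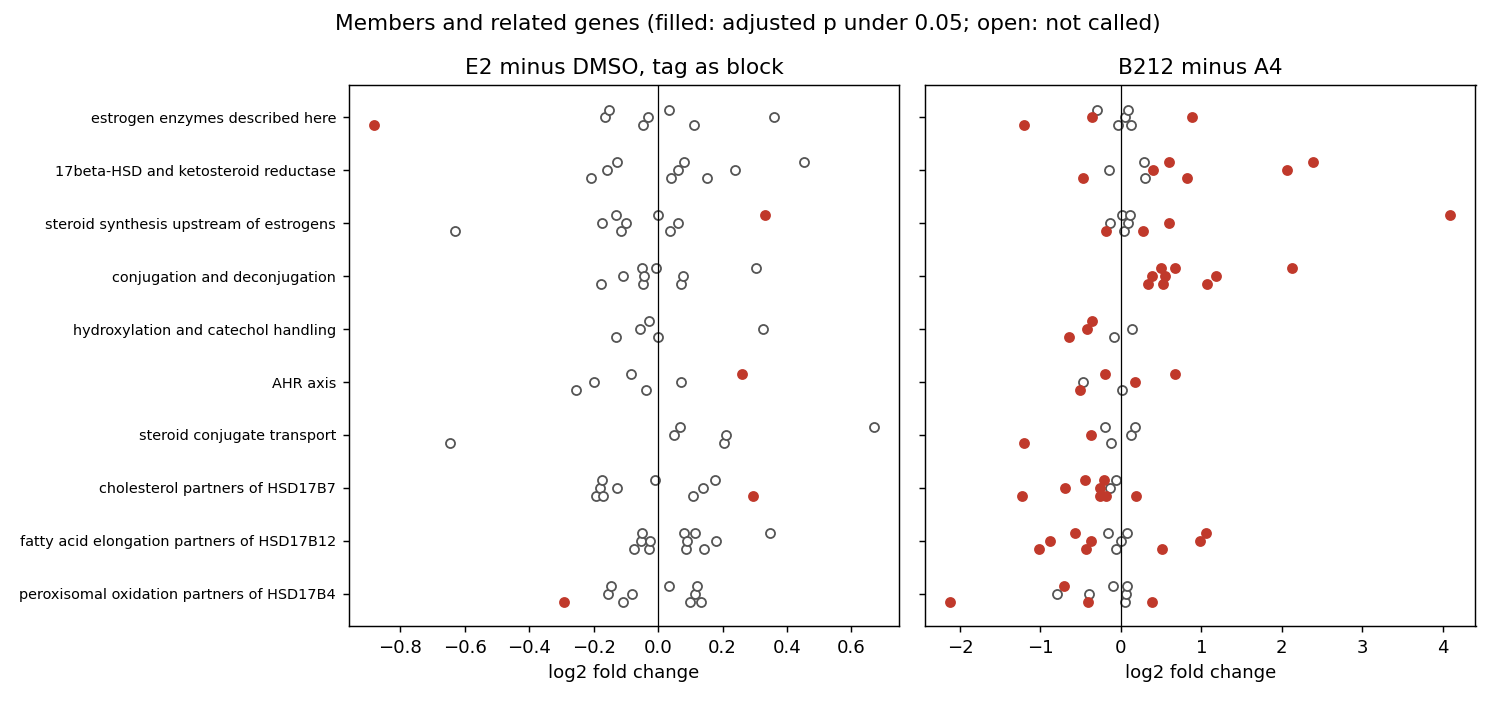
Log2 fold changes of the 8 tested enzymes (top line) and of the tested genes of 9 related lists, for E2 against DMSO with the tag as a block (left) and for B212 against A4 (right). Filled points have an adjusted p under 0.05, and open points do not; on the left CYP1A1 at -0.88 is the filled point farthest from 0, and on the right all 9 conjugation genes are filled and above 0.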

How the data were processed

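The authors deposited raw read counts per gene symbol. The submitters' processing notes name HISAT2, SAMtools, featureCounts and DESeq2 and the build hg19. Versions, strand setting and annotation are not given in the sources used here. Per the labels' protocols, poly(A)-selected stranded libraries were made from 500 ng of RNA. Another 4 columns matched no sample and were not used.

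Columns were placed in the DMSO or E2 group by name. Nothing says whether the libraries of a group are separate cultures beyond being separate clones. Without a block, p-values for E2 measure the spread between these libraries. With the tag as a block, and between the tags, they measure only the spread left after the tag and treatment terms. Each tag has a single DMSO and a single E2 library, so p-values between the tags do not measure spread among clones. Each pairwise comparison of libraries exceeded sampling noise (chi-square per degree of freedom 27.1 to 218.4). The labels pair a DMSO and an E2 sample of each clone. Libraries of the same tag deviated together from their group means across genes (Pearson r = 0.871, a single independent value with 2 groups of 2), and the tag was used as the replicate block.

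Genes were kept by filterByExpr (minimum count 10) and scaled with TMM factors. edgeR 4.0.16 quasi-likelihood tests ran across all 15599 genes, Benjamini-Hochberg adjusted, called under 0.05. For the tags, treatment was a covariate. Each standard error is the absolute fold change over the root of F. CPM used TMM-scaled library sizes, and log2 CPM a prior count of 2. Intervals within a tag are exact binomial (Clopper-Pearson) at 95%, and those of differences between tags use a normal approximation of counting error. Lengths and GC content, found for 93.5% of tested genes, came from GENCODE 29 (GRCh38), whose build differs from that of the counts. Alternatives used other scalings and filters, DESeq2 1.42.0, limma 3.58.1 (voom), a length and GC trend fitted with mgcv 1.9.3, and each library left out. R 4.3.3, Python 3.11.15 and matplotlib 3.10.9 were used, and the fits were tested on simulated data.

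The members, lists and tests were chosen with earlier results of these data known. Named genes were the 9 enzymes, CYP19A1, AHR and, for each list and fit, at most 4 called genes, taken by smallest p. For enzymes that differed between tags by at least 1 (log2) with a mean of at least 50 counts, the 3 nearest profiles were named, as were copies and antisense genes. Other genes were named after their values were seen. Some genes that the rule names are counted in their lists but not reported here.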

Additional observations from a re-analysis of the deposited data

Results flagged for a closer look

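Of the 8 tested enzymes, 3 had E2 values of opposite sign in the A4 and B212 libraries. Each tag had 1 library per treatment, so these differences were not tested against replicate spread, and counting intervals cover counting error only. SULT1E1 had a log2 ratio of E2 to DMSO of 0.33 in A4 and of -0.11 in B212; these differed by -0.44 (95% counting interval -0.81 to -0.069). STS had 0.065 in A4 but -0.13 in B212, which differ by -0.19 (-0.36 to -0.022). HSD17B12 had 0.093 in A4 but -0.028 in B212, which differ by -0.12 (-0.17 to -0.072). All 3 were higher with E2 in A4 and lower in B212.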

How the results depend on the processing

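Without a block, the count of 0 genes for E2 (150 at an unadjusted p under 0.05) was the same under both other scalings, both other filters, limma-voom and each library left out, where the lone library of a group is assumed to vary like the other group; DESeq2 called 1 gene. With the tag as a replicate block 1492 genes were called, and 1686 with library size only, 1770 with no filter, 1560 with at least 10 counts in every library, 1138 with limma-voom, 721 with the length and GC trend removed, 717 with DESeq2 size factors and 562 with DESeq2. CYP1A1 was called under each of these but DESeq2, which gave it no adjusted p. The tag count of 7950 became 4456 with no treatment term, and lay between 5538 and 8907 otherwise; leaving out a library leaves that fit no residual degrees of freedom, so it gave values and no calls.

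Of the enzymes, with the trend removed and the block the E2 values of HSD17B12 (-0.087) and SULT1E1 (-0.12) changed sign, and between the tags that of HSD17B12 (-0.037); library size only turned STS between the tags to 0.025. The cause was not tested. With each library left out, E2 values without a block ran from -0.025 to 0.090 (HSD17B12), -0.87 to 0.57 (CYP1B1), -0.10 to 0.0092 (HSD17B4), -0.15 to 0.36 (SULT1E1) and -0.099 to 0.038 (STS), and tag values from -0.0059 to 0.12 (HSD17B12) and -0.14 to 0.053 (STS). The low counts of HSD17B1, SULT1E1 and CYP1A1, 127 to 428 per library, limit what can be seen of small changes.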

Other observations

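CYP1A2, the neighbour of CYP1A1 and another target of the aryl hydrocarbon receptor, was under the filter on low counts. It had 4 and 7 counts in A4 (DMSO, E2) and 26 and 6 counts in B212, so its highest library was B212 DMSO, as for CYP1A1. Other genes tied to this receptor differed. TIPARP (40.3 CPM) and AHRR (0.984 CPM) were lowest in B212 DMSO, and CYP1B1 had 23.1 CPM there against 53.8 CPM in A4 DMSO. GSTM1, a glutathione transferase that handles estrogen quinones, had 11 and 7 counts in A4 and 0 in both B212 libraries. CYP1A2 and GSTM1 were chosen after their values were seen and were not tested.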
